A study of Mus musculus with 12 samples.

Results

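Open chromatin was examined at 7 genes of the LIN28 and let-7 circuit, namely Lin28a, Lin28b, Hmga2, Igf2bp1, Igf2bp2, Igf2bp3 and Trim71. Their peaks were taken as all ATAC-seq peaks that overlapped the annotated gene body (GENCODE M21, GRCm38) extended by 20 kb on each side. This gave 116 of 91354 peaks in the peak set built from the BGI samples and 115 of 87027 peaks in the set built from the Illumina samples. Mouse embryonic fibroblasts (MEFs) that had been sorted for THY1 were compared with embryonic stem cells (mESCs) that lacked THY1 and were positive for SSEA1 and EPCAM. Both were of a C57/Bl6 background, carried no stated genetic change and received no treatment, and the age of the embryos is not given in the sources used here. Omni-ATAC-seq, in which a transposase cuts and tags accessible DNA, was run on 3 biological replicates per cell type (MEF libraries 1, 2 and 4, mESC libraries 1, 3 and 5). Every library was sequenced with both a DNBSEQ-G400 (BGI) and a HiSeqX10 (Illumina), which gave 12 samples in 4 groups of 3. Because both instruments read the same libraries, they are repeat readings and not independent replicates. Values are CPM, the read count of a peak scaled to the total reads in peaks of its sample, and log2 fold changes are mESC minus MEF unless stated otherwise.

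let-7 is a family of microRNAs that accumulates as cells differentiate. Its mature RNA pairs through its seed with the 3′ untranslated regions (3′ UTRs) of target transcripts and represses them. LIN28A and LIN28B bind let-7 precursors and block their processing, so that cells with LIN28, such as embryonic stem cells, hold little mature let-7. Lin28 transcripts are themselves let-7 targets, and so are those of HMGA2, an architectural chromatin protein of embryonic mesenchyme, of the IGF2BP family of RNA-binding proteins and of TRIM71, an RNA-binding repressor of early development. ATAC-seq shows how accessible the DNA of these genes is, and measures neither transcripts nor let-7 itself.

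The mature family members are shown because their shared seed defines the group of targets. The sequences were taken from RefSeq (GRCm38.p6), 5′ to 3′, with the seed (bases 2 to 8) in capitals. Of the 11 members listed, 10 had the same seed, and let-7j differed in it.
let-7a-5p: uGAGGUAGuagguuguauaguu
let-7b-5p: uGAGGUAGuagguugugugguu
let-7g-5p: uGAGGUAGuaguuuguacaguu
let-7i-5p: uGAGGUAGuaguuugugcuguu
miR-98-5p: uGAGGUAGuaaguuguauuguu
let-7j: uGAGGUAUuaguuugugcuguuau

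Sites for this seed (CTACCTC in the DNA) were found in the 3′ UTR of each of the 7 genes, in the coding transcript with the longest one. Lin28b, Hmga2, Igf2bp1 and Trim71 each held 4, Lin28a held 2, and Igf2bp2 and Igf2bp3 each held 1. Among 20677 coding genes with a 3′ UTR of at least 50 bases, 9.16% held at least 1 such site and 0.155% held at least 3. The genes belong together because they are known let-7 targets, so these counts describe them and are no test. In Trim71, all 4 sites were followed by an A, the form with the longer pairing, against 1 of the 4 in Hmga2. A site from each gene is shown with the seed match in capitals, all on the minus strand of GRCm38, to let the shared letters be seen in their different surroundings.
Lin28a, chr4:134005188-134005217: tggagtgcacagcctgttgaaCTACCTCat
Lin28b, chr10:45381021-45381050: cccttcacccgggcgggaagtCTACCTCat
Hmga2, chr10:120364223-120364252: gggggcgccgacattcaatttCTACCTCag
Igf2bp1, chr11:95961777-95961806: ggcagtgctgtgcgaagtaaaCTACCTCaa
Igf2bp2, chr16:22059472-22059501: agaaaaacacacaaataaaagCTACCTCag
Igf2bp3, chr6:49086786-49086815: taaacgtgcatttttactcaaCTACCTCag
Trim71, chr9:114512471-114512500: aagtacaacattgcctaagtcCTACCTCag

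BGI samples had 20085886 to 21662775 reads in peaks of the BGI set for MEFs and 15860985 to 16911482 for mESCs, and Illumina samples had 20127546 to 21441767 and 15996202 to 16958488 reads in peaks of the Illumina set. The sorted cell types were checked at promoter peaks of marker genes. On both platforms 9 of 10 mESC markers were higher in mESCs, and 9 of 10 MEF markers were lower. Of all promoter peaks, 31.3% were higher and 41.0% lower on BGI, and 31.6% and 42.4% on Illumina. The exceptions were Fut4 of the mESC markers, which was lower in mESCs (log2 fold change -0.67 on BGI), and Pdgfra of the MEF markers, which did not pass the test (0.08). Promoter peaks were present for 4 of 6 endothelial and blood markers, with a summed level of 46.5 to 51.3 CPM in MEFs and 28.2 to 35.5 CPM in mESCs on BGI, and the endothelial and blood genes Cdh5 and Ptprc had none. Of these 4, Cd34 and Csf1r were lower in mESCs. Of 6 epithelial and trophoblast markers, 3 had a promoter peak, with a sum of 39.8 to 49.8 CPM in MEFs and 46.6 to 50.9 CPM in mESCs, Sox17 being higher and Gata6 lower in mESCs, and Krt5, Krt14 and Cdx2 had none. The part of other cells in the results was not tested.

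The genes differed in how many of their peaks were higher or lower in mESCs. On BGI, 31 of 33 peaks of Trim71 were higher and 21 of 24 peaks of Hmga2 were lower, and on Illumina 29 of 31 and 22 of 27. Lin28a and Igf2bp1 each held 1 lower peak on BGI and 0 on Illumina, and Lin28b, Igf2bp2 and Igf2bp3 held peaks of both directions on either platform. On BGI, 71 of the 116 peaks (61.2%) were higher in mESCs and 33 (28.4%) were lower by edgeR's quasi-likelihood test at an adjusted p under 0.05, where 40.9% and 43.2% of all peaks tested were. On Illumina, 70 of 115 (60.9%) were higher and 31 (27.0%) were lower, beside 42.1% and 42.4% of all peaks. With the further demand of a log2 fold change of at least 1, 57 peaks were higher and 28 lower on BGI, or 49.1% and 24.1% of the peaks beside 33.0% and 30.1% of all peaks. On Illumina this gave 59 and 28, or 51.3% and 24.3% beside 33.6% and 28.2%. The median log2 fold change was 0.95 over the 116 BGI peaks and -0.08 over all peaks of that set, and 1.06 and -0.03 on Illumina. With 33 of the 116 peaks, Trim71 weighs more than any other gene in these counts.

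**Figure D1:**
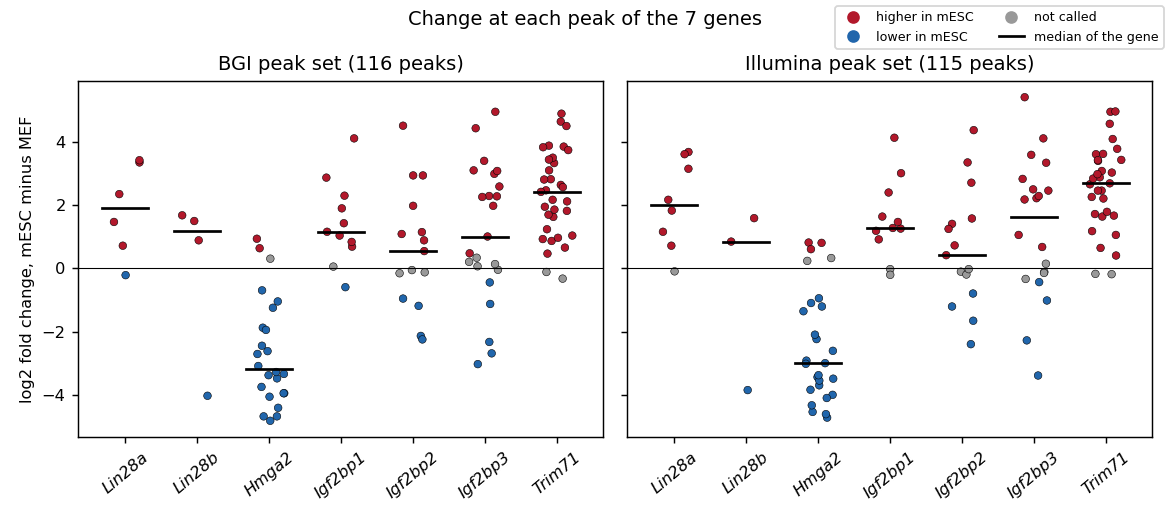
Each point is 1 peak of the gene named below it, placed by its log2 fold change (mESC minus MEF) in the BGI peak set (left) and the Illumina peak set (right), and coloured by the edgeR call. The black lines mark the median of each gene, at -3.18 for Hmga2 and 2.42 for Trim71 on BGI, and the 5 other genes lie between them.

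The CPM were also summed over all peaks of each gene. For Trim71 on BGI it was 136, 142 and 132 CPM in MEFs 1, 2 and 4 and 534, 525 and 532 CPM in mESCs 1, 3 and 5, a ratio of 3.89 (mESC to MEF). For Hmga2 it was 300, 288 and 256 CPM in MEFs and 71.0, 73.4 and 72.8 CPM in mESCs, a ratio of 3.89 the other way (MEF to mESC). The groups of these genes lay far apart relative to the spread between libraries. Igf2bp1 had a mean of 107 ± 4.54 CPM in MEFs and 282 ± 10.5 CPM in mESCs (SD, n = 3), a ratio of 2.63, and Igf2bp2 a ratio of 1.15, with 123 ± 1.38 against 142 ± 3.66 CPM. Lin28a (52.2 ± 2.37 against 99.6 ± 1.77 CPM), Lin28b (21.4 ± 0.261 against 37.1 ± 5.64 CPM) and Igf2bp3 (267 ± 7.66 against 387 ± 22.5 CPM) lay between these. A two-sided exact permutation test of 3 against 3 samples cannot go below p = 0.1, which each sum gave, so the sums are a description and carry no call. A sum grows with the number of peaks and with gene length, and runs over peaks that were kept for being open in at least 1 of the cell types, so its ratio is not a fold change of the gene.

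Lin28a encodes the LIN28 protein typical of pluripotent cells. Its promoter peak, taken for each gene as the peak with the most reads within 1 kb of any annotated start site of the gene, lay at an internal start 6.9 kb inside the gene (chr4:134011662-134012163). On BGI it held 1.85, 3.63 and 2.64 CPM in MEFs and 28.7, 29.2 and 28.5 CPM in mESCs. MEF samples were low and the groups did not overlap, and edgeR gave a difference of 3.35 on the log2 scale (SE 0.18, adjusted p = 2.11e-11) for BGI and 3.68 (SE 0.14, adjusted p = 4.91e-13) for Illumina. The outermost start of the gene was covered by a peak of the Illumina set only (chr4:134018595-134019096), at 0.606, 1.29 and 1.13 CPM in MEFs and 11.6, 13.0 and 13.6 CPM in mESCs, with a log2 fold change of 3.61. Altogether 5 of 6 BGI peaks of Lin28a and 7 of 8 Illumina peaks were higher in mESCs. The remaining one lay in the flank at the start of the neighbouring gene Dhdds, and its log2 fold change was -0.21 (edgeR adjusted p = 0.0454, not called with DESeq2) on BGI and -0.09, not called, on Illumina.

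Among the peaks of Lin28a called on both platforms, the one with the greatest log2 fold change on BGI (3.42, against 3.15 on Illumina, where the promoter peak ranked above it) lay 1.9 kb inside the gene, by a start of the overlapping annotated gene Gm13061, so it cannot be assigned to either from these data. It held 1.06, 0.795 and 0.747 CPM in MEFs and 8.13, 11.4 and 10.1 CPM in mESCs on BGI, a fitted ratio of 10.7, and the groups did not overlap. MACS2 had called a summit in this peak in all 3 mESC samples of each platform and in none of the MEF samples. As the peak was chosen for its rise between cell types, these calls largely follow from the choice and are no further support.

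Lin28b, the paralog of Lin28a, had only 4 peaks on BGI and 3 on Illumina, although its body is 109.8 kb long. Its promoter peak at the gene start (chr10:45486202-45486703) held 5.59, 5.47 and 7.67 CPM in MEFs and 20.7, 23.6 and 18.3 CPM in mESCs, a log2 fold change of 1.68 (SE 0.16, adjusted p by edgeR = 3e-08). MACS2 called a summit in it in every sample, with fold enrichments of 7.21 to 8.66 in MEFs and 22.8 to 29.2 in mESCs on BGI. A second peak just inside the gene (0.89) and an intronic peak of the BGI set alone, 40 kb from the start (1.5), were also higher in mESCs. An intronic peak 87.9 kb inside Lin28b (chr10:45398229-45398730) went the other way. It held 9.92, 8.8 and 5.23 CPM in MEFs against 0.441, 0.591 and 0.497 CPM in mESCs, a log2 fold change of -4.02 on BGI and -3.84 on Illumina. The annotated start nearest to this peak was that of Bves, so it cannot be assigned to Lin28b alone.

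Hmga2 had 24 peaks on BGI, of which 21 were lower in mESCs, 2 were higher and 1 was not called. On Illumina these counts were 22, 3 and 2 of 27 peaks. The one with the most reads, named here after its values were seen, lay in an intron 54.2 kb from the gene start (chr10:120422014-120422515), with 48.6, 46.0 and 42.2 CPM in MEFs and 4.67, 4.61 and 4.60 CPM in mESCs. That was a log2 fold change of -3.37 (SE 0.12, adjusted p by edgeR = 2.77e-13), the groups being far apart. The middle of this peak is shown, on the plus strand, with a match to TGANTCA in capitals. This pattern was used for AP-1 and lets N be any base, here A.
Hmga2 intronic peak, chr10:120422115-120422414: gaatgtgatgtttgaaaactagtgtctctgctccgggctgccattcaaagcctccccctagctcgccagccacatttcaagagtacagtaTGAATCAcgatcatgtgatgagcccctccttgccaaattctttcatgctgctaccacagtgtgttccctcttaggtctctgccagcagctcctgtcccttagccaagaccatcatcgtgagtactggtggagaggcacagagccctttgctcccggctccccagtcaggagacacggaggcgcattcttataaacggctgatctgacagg

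Of the BGI peaks of Hmga2 that were lower in mESCs, 16 lay in its body, 4 in its flanks and 1 at its promoter. The flank peak just upstream of the start gave log2 fold changes of -1.04 on BGI and -0.94 on Illumina, and the other flank peaks lay past the 3′ end. For 20 of the 24 BGI peaks the nearest annotated start was that of another gene (9230105E05Rik, Mir763 or 1700006J14Rik), so they cannot be assigned to Hmga2 alone. A further peak named for its values, 74.4 kb from the start in an intron (chr10:120401777-120402278), held 24.8, 21.8 and 22.6 CPM in MEFs and 1.51, 0.887 and 0.435 CPM in mESCs, a log2 fold change of -4.67. Past the 3′ end, 118.1 kb from the start, the peak with the greatest fall called on both platforms (chr10:120358166-120358667) held 11.4, 11.2 and 6.12 CPM in MEFs and 0.126, 0.887 and 0.124 CPM in mESCs. The groups did not overlap, its log2 fold change was -4.67 (SE 0.45) on BGI and -4.71 on Illumina, and no mESC sample had a called summit there. As the peak was chosen for its fall, the lack of summits largely follows from the choice and is no further support.

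At the Hmga2 start the difference was smaller and its direction changed within little more than 1 kb. The promoter peak (chr10:120476168-120476669) held 24.2, 25 and 17.1 CPM in MEFs and 8.95, 11.4 and 8.95 CPM in mESCs, so it was lower in mESCs but not closed (log2 fold change -1.24, SE 0.17, edgeR adjusted p = 1.67e-06). The adjoining peak 1.3 kb inside the gene (chr10:120474920-120475421) held 7.85, 4.13 and 6.17 CPM in MEFs and 10.7, 12.8 and 13.2 CPM in mESCs. It was higher in mESCs (0.94, SE 0.21, edgeR adjusted p = 0.000417), and on Illumina the pair gave -1.35 and 0.81. A peak 77.5 kb from the start was also higher in mESCs (0.64), and 1 at 47.4 kb was not called (0.31).

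**Figure D2:**
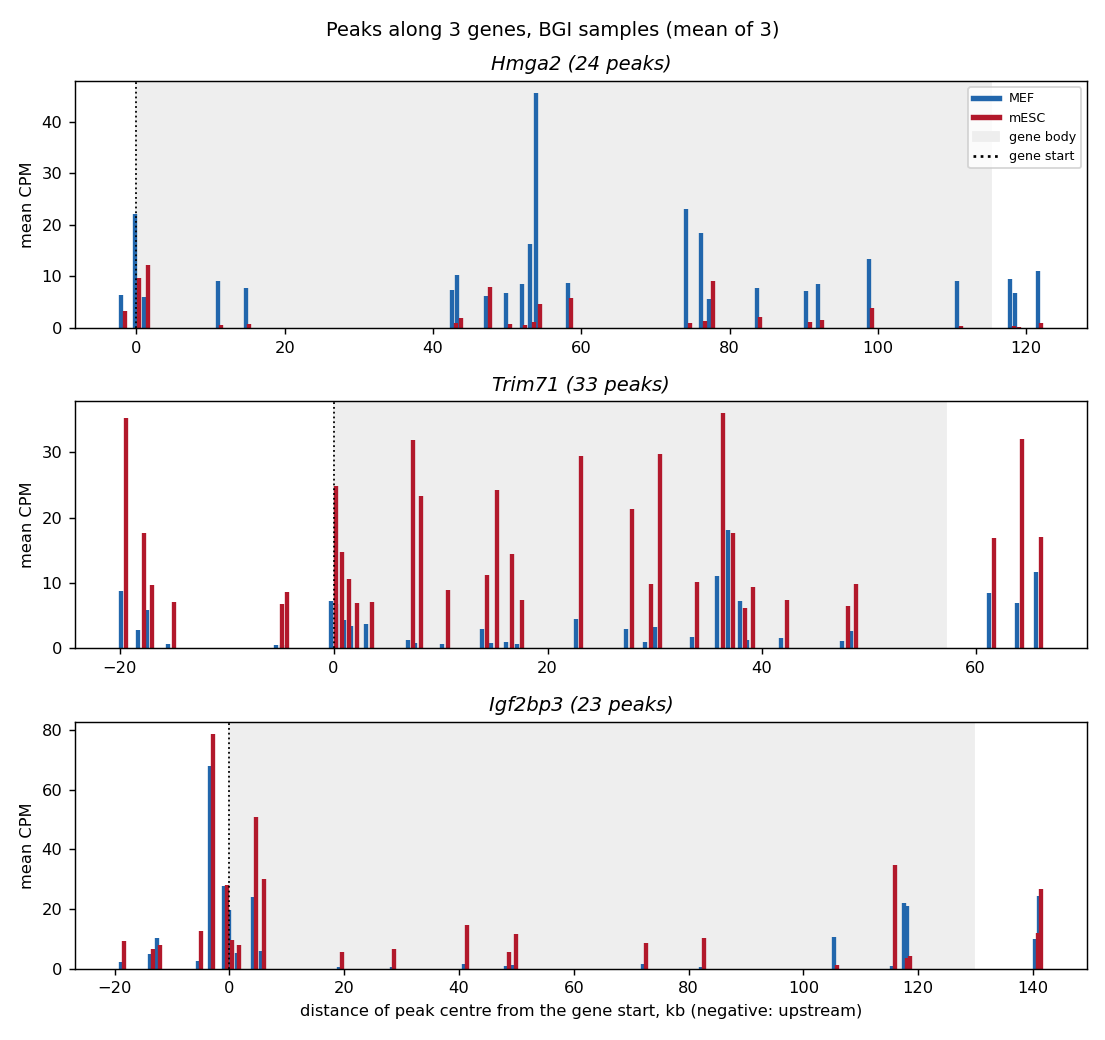
Mean CPM of the 3 BGI samples of each cell type (vertical lines from 0, blue for MEF and red for mESC) at the peaks of Hmga2, Trim71 and Igf2bp3, placed by the distance of the peak centre from the gene start in kb, with the gene body in grey. Hmga2 shows blue lines across its body with the highest at 45.6 CPM, Trim71 shows red lines from 19.6 kb upstream to past its 3′ end, and Igf2bp3 shows both.

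The IGF2BP genes encode RNA-binding proteins that act on the stability and translation of their target mRNAs. Igf2bp1 was the one with the more uniform change. Of its 11 BGI peaks, 9 were higher in mESCs and 1 was lower, and of 11 Illumina peaks 9 were higher and 0 lower. At an unadjusted p under 0.05, and with DESeq2, the number lower on Illumina was also 0. Its promoter peak lay at an internal start 23.2 kb inside the gene and held 19.9, 18.4 and 17.0 CPM in MEFs and 40.9, 35.9 and 42.3 CPM in mESCs (log2 fold change 1.04, SE 0.11). An exonic peak next to it, also named after its values were seen, 24.8 kb inside the gene, held 7.16, 6.06 and 7.42 CPM in MEFs and 55.0, 52.2 and 51.3 CPM in mESCs (2.87, SE 0.11).

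The peak of Igf2bp1 with the greatest rise lay 42.4 kb inside the gene, closest to the start of the annotated microRNA gene Mir3063 (chr11:95963263-95963764). It held 2.17, 1.99 and 1.59 CPM in MEFs and 38.9, 32.6 and 32.8 CPM in mESCs, a fitted ratio of 17.2 (edgeR adjusted p = 5.68e-13). The peak at the outermost start of Igf2bp1 went the other way on BGI, with 12.1, 12 and 13.4 CPM in MEFs and 8.51, 8.10 and 9.63 CPM in mESCs (-0.59, edgeR adjusted p = 0.0015), but the matching Illumina peak was not called (-0.20). The start peak lay closest to an annotated start of Gm29202 and the peaks just upstream closest to Gm37179, and they cannot be assigned to Igf2bp1 alone.

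Igf2bp2 held peaks of both directions. Its promoter peak did not pass the test and held 16.2, 16.9 and 20.3 CPM in MEFs and 15.4, 20.8 and 14.9 CPM in mESCs, with overlapping groups (log2 fold change -0.12, SE 0.15, edgeR adjusted p = 0.434). Another peak over an annotated start, 1.9 kb inside the gene, was higher in mESCs, with 5.82, 6.61 and 8.21 CPM in MEFs and 10.5, 8.93 and 12.2 CPM in mESCs (0.55, edgeR adjusted p = 0.00998, and 0.42 on Illumina). On both platforms 8 of 15 peaks were higher in mESCs, 4 were lower and 3 were not called. Within the introns, the peak with the greatest rise lay 23.2 kb from the start (chr16:22139819-22140320) and held 0.508, 1.14 and 0.398 CPM in MEFs and 17.6, 16.1 and 15.7 CPM in mESCs (4.51, SE 0.27). A peak near the 3′ end (chr16:22067392-22067893), chosen after its values were seen, was lower in mESCs instead, at 25.7, 24.8 and 26.3 CPM in MEFs against 6.81, 5.50 and 6.03 CPM in mESCs (-2.13, SE 0.13).

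Both of these Igf2bp2 peaks contained a match to the pattern TGANTCA (capitals), although they changed in opposite directions. Their middle 300 bases are shown side by side for this reason. The base at N was T in the peak higher in mESCs and G in the lower one, so the matches themselves differed.
Igf2bp2 peak higher in mESCs, chr16:22139920-22140219: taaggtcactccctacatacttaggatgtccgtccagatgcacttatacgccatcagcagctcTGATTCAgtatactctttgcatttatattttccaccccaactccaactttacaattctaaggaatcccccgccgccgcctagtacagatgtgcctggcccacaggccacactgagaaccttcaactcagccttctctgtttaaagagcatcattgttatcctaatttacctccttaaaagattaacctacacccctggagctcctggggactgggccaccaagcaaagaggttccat
Igf2bp2 peak lower in mESCs, chr16:22067493-22067792: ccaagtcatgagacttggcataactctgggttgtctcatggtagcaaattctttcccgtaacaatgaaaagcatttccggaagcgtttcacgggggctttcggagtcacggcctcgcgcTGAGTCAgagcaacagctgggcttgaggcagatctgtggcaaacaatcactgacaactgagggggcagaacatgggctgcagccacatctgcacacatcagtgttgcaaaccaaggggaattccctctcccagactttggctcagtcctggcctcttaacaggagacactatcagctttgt

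Among the peaks of Igf2bp2 called on both platforms, the one with the greatest fall on BGI (chr16:22118886-22119387) held 7.43, 8.05 and 4.78 CPM in MEFs and 1.83, 0.887 and 1.80 CPM in mESCs. The groups did not overlap, at a log2 fold change of -2.24 on BGI and -1.65 on Illumina, where the peak near the 3′ end ranked first (-2.39). Lin28a, Igf2bp1 and Trim71 had no peak that was called lower on both platforms.

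Igf2bp3 had its widest contrasts in the 3′ part of the gene. An intronic peak 115.7 kb from the start (chr6:49099036-49099537) held 1.25, 0.994 and 0.946 CPM in MEFs and 37.3, 35.8 and 31.3 CPM in mESCs, a log2 fold change of 4.95 (SE 0.17, adjusted p by edgeR = 1.79e-13) on BGI and 5.41 on Illumina. About 2 kb further towards the 3′ end, 2 neighbouring peaks were lower in mESCs instead. The one at 118.3 kb held 18, 20.6 and 24.5 CPM in MEFs against 5.61, 3.73 and 3.91 CPM in mESCs (-2.32 on BGI and -2.27 on Illumina). The fall was greatest, among peaks called on both platforms, at 105.6 kb, from a mean of 10.5 ± 0.329 CPM to 1.34 ± 0.51 CPM (SD, n = 3), a log2 fold change of -3.02.

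Across the body of Igf2bp3, 10 of 13 BGI peaks were higher in mESCs. For 7 of the 23 BGI peaks in its window the nearest annotated start was that of Gm18010 or Malsu1, so these cannot be assigned to Igf2bp3 alone. At its start the picture differed between peaks: the promoter peak held 28.4, 26.8 and 27.6 CPM in MEFs and 24.1, 32.3 and 28.0 CPM in mESCs with overlapping groups (-0.04, edgeR adjusted p = 0.765), whereas the peak over the start itself was lower in mESCs (-1.12, SE 0.13). The peak of the gene with the most reads lay 3.1 kb upstream, at 72.0, 67.1 and 64.8 CPM in MEFs and 75.5, 82.5 and 78.0 CPM in mESCs. The groups did not overlap, but it was not called (0.14, edgeR adjusted p = 0.123).

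Trim71 gave 33 peaks on BGI, of which 31 were higher in mESCs and 0 lower, and 31 on Illumina, of which 29 were higher and 0 lower. At an unadjusted p under 0.05, and with DESeq2, the number lower was also 0 on both platforms. For 15 of the 33 BGI peaks the nearest annotated start was that of another gene, C130032M10Rik in 11. The peaks with the largest log2 fold changes lay in the introns. The one at 15 kb (chr9:114549110-114549611) held 0.646, 0.596 and 1.10 CPM in MEFs and 23.4, 24.5 and 25.1 CPM in mESCs (4.89, SE 0.20, edgeR adjusted p = 1.16e-12). No MEF sample had a called summit in it, while the mESC samples had fold enrichments of 32.7, 36.0 and 36.4 on BGI. As the peak was named for its large rise, these calls largely follow from the choice and are no further support. Its middle is shown on the plus strand, with a match to the POU octamer motif ATGCNAAT, here on the minus strand, in capitals. OCT4, the defining pluripotency factor, belongs to the POU family.
Trim71 intronic peak, chr9:114549211-114549510: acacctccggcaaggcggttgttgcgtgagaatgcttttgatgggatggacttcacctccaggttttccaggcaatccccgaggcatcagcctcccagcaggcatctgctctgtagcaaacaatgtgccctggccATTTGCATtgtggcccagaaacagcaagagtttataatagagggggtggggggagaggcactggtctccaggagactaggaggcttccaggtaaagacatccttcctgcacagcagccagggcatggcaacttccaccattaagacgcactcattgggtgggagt

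A pair of further intronic peaks of Trim71, named for their values, was likewise nearly closed in MEFs. The one at 7.9 kb (chr9:114556216-114556717), which also held an octamer match, had 0.785, 0.447 and 1.44 CPM in MEFs and 20.9, 26.3 and 22.8 CPM in mESCs (4.64). Its neighbour at 7.2 kb had 1.20, 0.994 and 1.84 CPM in MEFs and 32.5, 31.3 and 32 CPM in mESCs (4.50). The promoter peak of Trim71 (chr9:114564139-114564640) changed less, from 7.48, 6.66 and 7.82 CPM in MEFs to 22.1, 26.6 and 25.8 CPM in mESCs (1.70, SE 0.14, edgeR adjusted p = 2.55e-09). MACS2 called a summit there in all 3 MEF samples on BGI and in 1 of 3 on Illumina. The 2 peaks that were not called lay at 37.1 and 38.2 kb, and the first held 19.2, 19.4 and 15.5 CPM in MEFs and 17.9, 18.4 and 16.4 CPM in mESCs, with overlapping groups.

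The edge of the 20 kb flank lay at an accessible site upstream of Trim71. On Illumina a peak centred 20.2 kb upstream still overlapped the flank, with 8.35, 9.79 and 11.4 CPM in MEFs and 85.2, 84.4 and 78.8 CPM in mESCs (3.03, SE 0.10), and it contained 2 octamer matches. The BGI peak at the same site was centred at 20.4 kb, lay outside, and was not counted among the 116. It held 6.23, 7.80 and 8.56 CPM in MEFs and 73.1, 79.1 and 70.8 CPM in mESCs (3.24, SE 0.12).

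**Figure D3:**
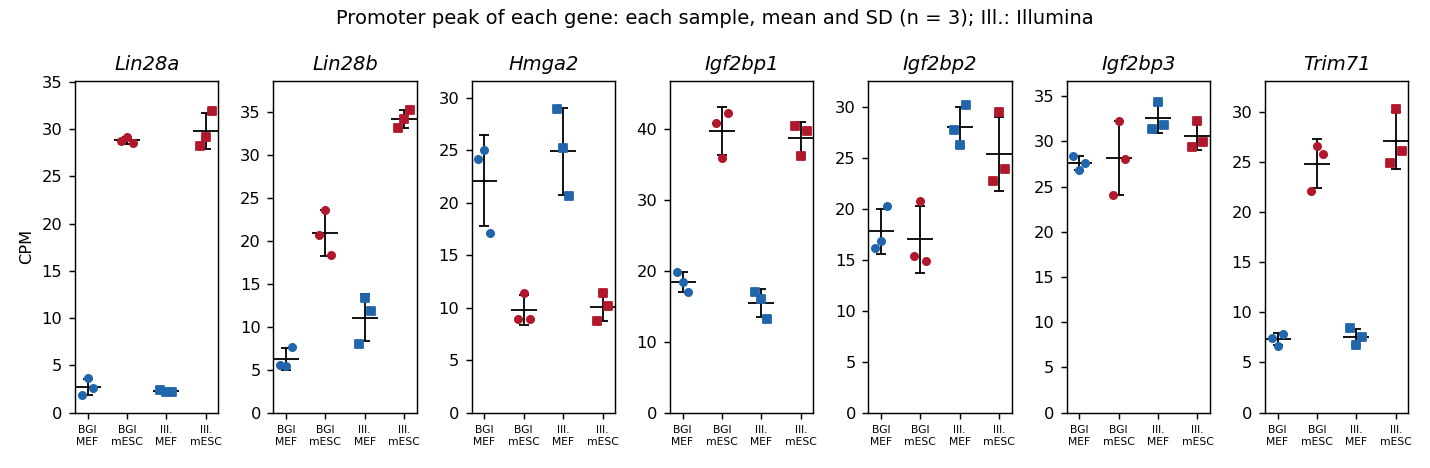
CPM of the promoter peak of each gene in every sample (circles BGI, squares Illumina, blue MEF, red mESC), with the mean and SD of each group of 3 as horizontal line and bar. Lin28a, Lin28b, Igf2bp1 and Trim71 lie higher in mESCs, Hmga2 lies lower, and the MEF and mESC groups of Igf2bp2 and Igf2bp3 overlap on either platform.

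Of the 7 promoter peaks, 4 were higher in mESCs, 1 was lower and 2 were not called, on both platforms, where 31.3% of all promoter peaks on BGI were higher and 41.0% were lower. This tally depends on the peak taken. The outermost start of Igf2bp1 gave -0.59 on BGI and -0.20, not called, on Illumina, and the start of Igf2bp3 gave -1.12 and -1.01. Of all 20 BGI peaks by any start of the 7 genes, 14 were higher, 3 lower and 3 not called, and of 21 on Illumina 12, 3 and 6. Gene-body and promoter peaks differed in size of change: the median size of the log2 fold change, regardless of sign, was 2.70 over 69 gene-body peaks and 1.04 over 20 promoter peaks on BGI. Over all peaks of the BGI set it was 2.63 for intronic and 0.61 for promoter peaks. In the lists of reproducible peaks, 54 of the 116 BGI peaks overlapped only the mESC list, 31 only the MEF list and 31 both, or 46.6%, 26.7% and 26.7%. Over the whole BGI set these shares were 35.6%, 31.8% and 32.6%. For Trim71 these numbers were 23, 2 and 8, and for Hmga2 they were 3, 20 and 1.

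Summits that MACS2 called in single samples with a -log10 p of at least 10 were also counted in the window of each gene. Genome-wide, BGI samples had 116121 to 121339 such summits in MEFs and 124900 to 129705 in mESCs, from different read depths (60 M in MEFs and 45 M in mESCs). On BGI, Hmga2 held 58 to 101 in MEFs and 13 to 20 in mESCs. Trim71 held 16 to 17 in MEFs and 70 to 76 in mESCs. In the other genes the ranges in MEFs and mESCs were 2 to 3 and 12 to 17 for Lin28a, 4 to 8 and 9 (in each sample) for Lin28b, 16 to 18 and 29 to 33 for Igf2bp1, 13 to 15 and 23 to 28 for Igf2bp2, and 18 to 22 and 30 to 36 for Igf2bp3. On BGI, Hmga2 was the one gene of the 7 with more such summits in MEFs. On Illumina it held 54 to 103 in MEFs and 14 to 15 in mESCs. The Illumina ranges of Lin28b overlapped (5 to 8 and 6 to 7), and the remaining genes held more in mESCs. Of the Hmga2 summits in MEFs on BGI, 30 to 75 lay outside every peak of the set, and 8 to 38 were more than 1 kb from any. For the Trim71 summits in mESCs on BGI these numbers were 33 to 40 and 10 to 13, so summits outside the peaks were not particular to Hmga2. The share over all summits is not given here.

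Short motifs were counted over the width of each peak on either strand, as a description. In their letters N stood for any base. Matches to TGANTCA (AP-1, a factor pair of fibroblast enhancers) were found in 10 of 28 peaks of the 7 genes that were lower in mESCs by a log2 fold change of at least 1 (35.7%), and in 6 of 57 that were higher (10.5%). Over all BGI peaks the shares were 44.5% and 19.2%, and 25.2% of all peaks held a match. GGAATG (TEAD) occurred in 9 of the 28 (32.1%) and 20 of the 57 (35.1%), beside 43.1% of all lower, 30% of all higher and 31.6% of all peaks. ATGCNAAT was found in 2 of the 57 (3.51%) and in 0 of the 28, beside 9.91% of all higher and 6.18% of all peaks, and both peaks were those of Trim71 described above. TCAAGGTCA (the motif of ESRRB, a pluripotency factor) occurred in 1 of the 57, also in Trim71, beside 2.85% of all higher and 1.42% of all peaks. A match is a description and not a binding site.

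The other genes of the circuit were examined at their promoter peaks. Of 12 let-7 genes, only Mirlet7e and Mirlet7i had a peak within 1 kb of their annotated start, which is that of the short precursor and not of the primary transcript. Mirlet7i held a mean of 34.0 CPM in MEFs and 14.5 CPM in mESCs on BGI and was lower in mESCs on both platforms (-1.30 and -1.21), and Mirlet7e was not called (-0.16 on BGI). Of 15 names of let-7 processing genes, 13 had a promoter peak (Zcchc11 and Zcchc6, older names of Tut4 and Tut7, are not in the annotation), and on BGI 1 was higher, 5 were lower and 7 were not called. On Illumina these numbers were 1, 6 and 6. Of all promoter peaks 31.3% were higher and 41.0% lower on BGI, beside 1 and 5 of these 13. Dis3l2, the nuclease that degrades uridylated let-7 precursors, was higher (0.47 on BGI and 0.48 on Illumina). Ago2, the slicing Argonaute, was lower (-1.08 and -0.95), as were Prkra (-0.79 and -0.68), a Dicer partner, and Tent2 (-0.35 and -0.28), a terminal nucleotidyltransferase. The median log2 fold change of these 13 was -0.15, beside -0.13 for all promoter peaks on BGI.

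Of 16 other let-7 targets, 5 promoter peaks were higher, 6 lower and 5 not called on BGI, and 4, 7 and 5 on Illumina. These counts lay near the shares over all promoter peaks, 31.3% and 41.0% on BGI and 31.6% and 42.4% on Illumina. Mycn, a MYC-family growth regulator, gave the highest value (1.02 on BGI and 0.83 on Illumina), and Nr6a1 (0.62 and 0.38), an orphan nuclear receptor, was also higher on both platforms. Nras, a RAS GTPase, was higher on BGI (0.42) and not called on Illumina (0.21). Igf1r (-0.76 and -0.81), the IGF1 receptor, gave the lowest value on both platforms. Plagl1 (-0.51 and -0.38), Hmga1 (-0.45 and -0.32) and Ccnd2 (-0.45 and -0.57) were also lower. Their median was -0.11, close to that of all promoter peaks.

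The promoter peaks most like those of Lin28a, Lin28b and Hmga2 were sought by the root mean square difference in log2 CPM (pseudocount 0.5) over the 12 samples of the BGI peak set, which share 6 libraries. For Lin28a they were those of Itga6 (0.19), Sema4b (0.21) and Foxp4 (0.21). For Lin28b they were those of Maneal (0.23), Otud7a (0.25) and Shisa7 (0.25), and for Hmga2 those of Cpq (0.18), Ecpas (0.18) and Rab3il1 (0.19).

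Since the study asked what the choice of sequencer changes, each gene was also compared between platforms within a cell type, on the peak sets built from both platforms. Without pairing of the libraries, 3 of 65 MEF peaks and 6 of 98 mESC peaks differed, or 4.62% and 6.12%, where 4.06% and 3.23% of all peaks did. All 9 were lower on BGI. Leaving out 1 library gave 0 calls in MEFs without MEF 1 or MEF 2 and 5 without MEF 4, and 0 in mESCs without mESC 1 or mESC 5. None was higher by this edgeR test, although 3 in each cell type were at an unadjusted p under 0.05, and DESeq2 called 1 higher in MEFs and 0 in mESCs. With the replicate block, which pairs the 2 readings of each library, 20 MEF peaks (8 higher and 12 lower on BGI) and 28 mESC peaks (8 higher and 20 lower) were called, or 30.8% and 28.6% beside 29.2% and 21.3% of all peaks.

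The peaks that were lower on BGI were rich in G and C. Without the block their median GC content was 76.5% in MEFs and 72.9% in mESCs, against 50% and 52.5% for the peaks not called. With the replicate block the 12 and 20 peaks lower on BGI had a median of 64.2% and 66.4%. Over all peaks, those lower on BGI had 72.3% in MEFs and 72.4% in mESCs without the block and 67.3% and 66.9% with it, so the pattern was not particular to these genes. Lin28b was the plainest case. In mESCs its start peak (77.2% GC) held 21.0, 23.8 and 18.5 CPM on BGI and 33.0, 33.9 and 35.0 CPM on Illumina. Without the block, the log2 fold change BGI minus Illumina was -0.74 (SE 0.11, edgeR adjusted p = 0.00507). In MEFs the start peak of Lin28b held 6.33, 6.48 and 8.21 CPM on BGI and 9.39, 15.4 and 12.4 CPM on Illumina (-0.84). The start peak of Igf2bp2 was lower on BGI in both cell types too, with 17.2, 18 and 22.1 CPM against 29.0, 27.5 and 31.7 CPM in MEFs (-0.65) and -0.62 in mESCs. The part of GC content in these differences was not tested.

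A GC-rich peak near the Hmga2 start (73.1% GC, chr10:120475553-120476054) held 7.52, 8.85 and 7.15 CPM on BGI and 10.4, 15.2 and 16.1 CPM on Illumina in mESCs, with a log2 fold change of -0.88. This peak was found in the Illumina set of both cell types and had no match in the BGI set. In Trim71, 2 peaks close to the start, with 71.9% and 72.7% GC, differed by -0.61 and -0.63. The remaining call in each cell type was the start of Gm37179 upstream of Igf2bp1 in mESCs (-0.56) and a peak by the start of Igf2bp3 in MEFs (-0.63).

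**Figure D4:**
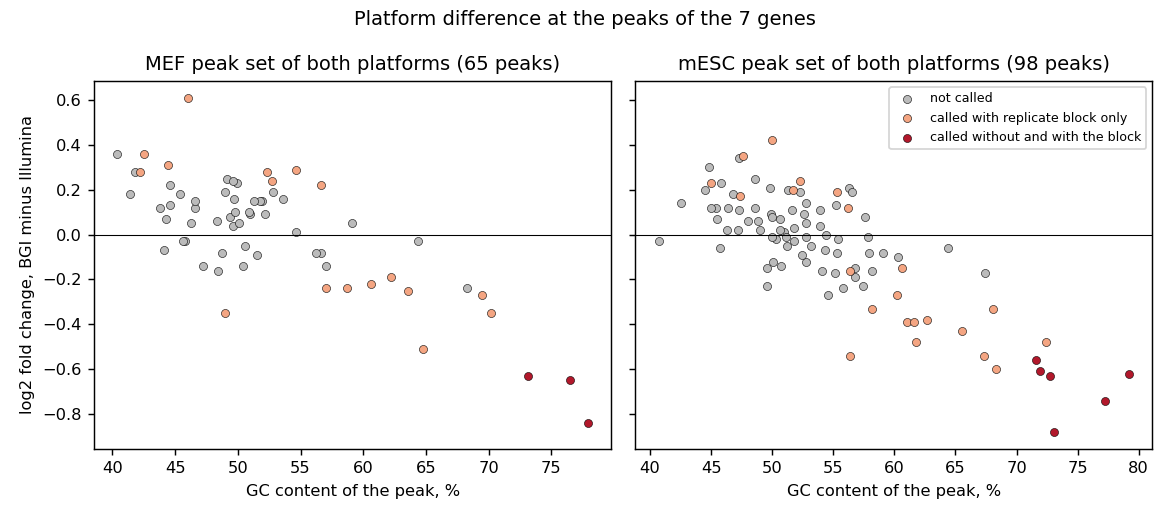
Log2 fold change between platforms (BGI minus Illumina) against the GC content of each peak of the 7 genes, in MEFs (left, 65 peaks) and mESCs (right, 98 peaks). Peaks called without the block (dark red) lie at -0.56 or below and above 70% GC, and those called with the replicate block alone (orange) lie on both sides of 0.

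The cell-type differences held on either platform. Of the 116 BGI peaks, 102 had an Illumina peak with at least 50% overlap, 98 of these had the same call and direction, and 0 were called in opposite directions. In a test of whether the mESC against MEF difference itself depended on the platform, 0 of 116 peaks were called by edgeR, beside 0% of all peaks, and 4 were at an unadjusted p under 0.05. With the replicate block 0 were called, beside 0.386% of all peaks, and 13 were at an unadjusted p under 0.05. Estimates ran from -0.82 to 0.63 on the log2 scale, and a test that makes no call does not show that the contrasts are equal.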

How the data were processed

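Omni-ATAC-seq libraries of 3 MEF and 3 mESC biological replicates, each read on both platforms, were analysed as 12 samples in 4 groups. The authors aligned reads with Bowtie2 to mm10 (GRCm38), removed duplicates, mitochondrial reads and chromosome Y, and down-sampled to 60 M reads for MEFs and 45 M for mESCs. The deposited tables hold raw counts of reads per peak, in sets of reproducible peaks built by the authors, which are of fixed width in the sets of 1 platform and of varying width in the sets of both. The MACS2 files the authors deposited give each summit's fold enrichment and −log10 p per sample. Columns without a platform suffix were taken as Illumina.

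From the counts, CPM was computed over all peaks, and edgeR 4.0.16 (quasi-likelihood F test, TMM, filterByExpr, R 4.3.3) compared groups over the whole table, with Benjamini-Hochberg adjustment and calls at an adjusted p under 0.05. DESeq2 1.42.0, which the authors used, was an alternative, as were other scalings and filters, a replicate block and leaving out each library. The edgeR fit was tested on simulated data. Peaks of 2 platforms were matched at 50% overlap.

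Named were, for each gene, its promoter peak (most reads within 1 kb of an annotated start) and, among peaks called on both platforms, the greatest rise and fall, ranked on BGI. Of each other let-7 list, up to 3 genes highest and 3 lowest on BGI by promoter peak were named, with ties. Other peaks given with values were chosen after their values were seen. Members and lists were chosen with earlier results of these data known. Same-library readings on the 2 platforms deviated together (MEFs, r = 0.618 to 0.837, mESCs, r = 0.514 to 0.722), and the study's methods state that both platforms read the same libraries, so the block pairs them. Between different libraries r lay between -0.676 and 0.298 for MEFs, and between -0.509 and -0.115 for mESCs. MEF and mESC libraries are separate and cannot be paired. The p-values of the cell-type tests measure the spread between 3 libraries of each cell type. Without the block, the tests that compare platforms treat the readings of the same library as independent, which they are not. With it, they measure the spread of the differences within libraries.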

Additional observations from a re-analysis of the deposited data

How the results depend on the processing

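The totals over the 7 genes of peaks called higher or lower between cell types stayed within 1.5 times of those reported under all alternatives run, but the 1 lower peak of Lin28a on BGI was not called with DESeq2. Scaling to the down-sampled depths shifted the median log2 fold change of all peaks by 0.14 on BGI and 0.13 on Illumina. Of 396 recomputed values of named peaks, 388 kept direction and call, 6 no longer lay below 0 and 2 gained a call. Those 6 all concerned promoter peaks that were not called: Igf2bp2 on BGI was 0.02 with down-sampled depths, and Igf2bp3 on BGI was 0.11 with down-sampled depths and, at no clear direction, 0.0 with DESeq2 and 0.0 with RLE size factors. Leaving out 1 library, Igf2bp3 on BGI ranged from -0.12 (without mESC 3) to 0.06 (without mESC 1), and was 0.04 without MEF 1. Without mESC 3, the Illumina promoter peaks of Igf2bp2 (-0.36) and Igf2bp3 (-0.22) were called lower in mESCs. The cause was not tested.

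Platform calls depended on the setting most. With the replicate block, which pairs the readings of a library, 20 peaks differed in MEFs in place of 3 and 28 in mESCs in place of 6, and DESeq2 called 6 in MEFs. Leaving out 1 library gave 0 to 5 peaks in MEFs (0 without MEF 1 or MEF 2, 5 without MEF 4) and 0 to 5 in mESCs (0 without mESC 1 or mESC 5). No DESeq2 fit was made of the test of whether the cell-type difference depends on the platform.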
